A study of Homo sapiens with 12 samples.

Results

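The SR splicing factors were followed in HCT116 cells, an epithelial line from a human colon carcinoma, as these starved cells were given serum with or without a depleted prefoldin subunit. The 10 genes were taken from a given list of SR protein genes and found by Ensembl identifier among the 58051 genes of the count tables: SRSF1, SRSF2, SRSF3, SRSF4, SRSF5, SRSF6, SRSF7, SRSF10, SRSF11 and TRA2B. Cells received 1 of 3 siRNAs with Oligofectamine, directed against PFDN2, against PFDN5 or a control sequence (siPFDN2, siPFDN5 and siControl below), with 1 siRNA sequence for each. Starvation for serum began 24 h after the siRNA and lasted 48 h in all groups, and RNA was taken either before serum was given back or 90 min after it. The 6 groups of 2 libraries each give 12 libraries of total RNA, depleted of 18S ribosomal RNA and copied with random primers. Nothing in the labels says that the 2 libraries of a group came from separate cultures, so p-values measure only the spread between these samples, which may be technical.

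SR proteins bind exonic enhancers through an RNA recognition motif and recruit the spliceosome through a domain rich in arginine and serine, which the SRPK and CLK kinases phosphorylate. Most SR genes hold a "poison" cassette exon or a retained intron of high sequence conservation. Including it places a stop codon early in the message, which is then degraded by nonsense-mediated decay (NMD) or held in the nucleus, and several SR proteins promote this event in their own transcripts, so that each limits its own level. Prefoldin, of which PFDN2 and PFDN5 are subunits, is a chaperone that hands unfolded actin and tubulin to the cytosolic chaperonin and that is also found in the nucleus. Serum brings growth factors back to starved cells and sets off a wave of transcription, the immediate early genes first.

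Examples of stretches that set an annotated non-productive message apart from a coding one are given here for 5 members. The shares reported below sum all transcripts annotated as NMD targets or as retaining an intron, and the printed stretches belong to some of these. They were read from the GRCh38 genome with the GENCODE v29 annotation. For the cassette exons of SRSF3, SRSF6, SRSF7 and TRA2B the sequence runs from the first base of the exon to its in-frame stop codon, which is in capitals. The SRSF3 exon (456 bases, chr6:36599821-36599854 shown, plus strand) is absent from the coding SRSF3-202. The SRSF6 exon (268 bases, chr20:43459153-43459304 shown, plus strand) belongs to SRSF6-202 and is absent from SRSF6-201. The SRSF7 exon (449 bases, chr2:38749319-38749346 shown, minus strand) belongs to SRSF7-204 and is absent from SRSF7-202. The TRA2B exon (276 bases, chr3:185931772-185931852 shown, minus strand) belongs to TRA2B-206 and is absent from TRA2B-205. For SRSF5 the first 30 and last 30 bases are given of the intron of 1215 bases (chr14:69769252-69769281 and chr14:69770437-69770466, plus strand) that SRSF5-212 retains and SRSF5-217 removes, with the splice-site dinucleotides in capitals.
SRSF3 exon to its stop: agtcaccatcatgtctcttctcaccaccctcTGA
SRSF6 exon to its stop: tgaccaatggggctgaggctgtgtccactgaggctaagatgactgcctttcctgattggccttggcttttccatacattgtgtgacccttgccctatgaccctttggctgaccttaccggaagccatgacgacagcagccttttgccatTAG
SRSF7 exon to its stop: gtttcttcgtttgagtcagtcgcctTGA
TRA2B exon to its stop: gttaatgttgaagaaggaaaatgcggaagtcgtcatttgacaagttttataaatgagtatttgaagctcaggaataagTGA
SRSF5 intron, first bases: GTttgttgaaatacagttttgagttatttt
SRSF5 intron, last bases: ctttgcttaacacaattatcttgtgttaAG
The distance from the start of the exon to the stop differed widely, from 28 bases in SRSF7 and 34 in SRSF3 to 81 in TRA2B and 152 in SRSF6.

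The libraries held 46158398 to 114454288 exon counts. EPCAM, CDH1, KRT8, KRT18 and KRT19, epithelial markers, had median levels of 86.1 to 1060 CPM (counts per library size, scaled with TMM), whereas PTPRC, CD3E, PECAM1 and COL3A1, markers of blood, vessel and connective tissue cells, reached at most 0.342 CPM, and COL1A1 ranged from 4.7 to 19.4 CPM. PFDN2 stood at 6.52 and 6.66 CPM in siPFDN2 libraries before serum, against 11.1 in both siControl libraries, and at 7.96 and 9.42 after serum, against 20.3 and 17. PFDN5 stood at 52.2 and 55.5 CPM in siPFDN5 libraries before serum, against 94.1 and 84.3, but at 78.0 and 79.6 after serum, against 87.3 and 90.1. The labelled target was thus little lowered in the latter pair, which are called the libraries labelled siPFDN5 after serum. One library, siPFDN2 before serum replicate 2, stood apart from the rest in some members. SRSF10 was at 79.0 CPM there and at 123 to 163 in the other 11 libraries, while SRSF2, at 256, lay within their range of 182 to 330. Results are therefore given with and without this library where it matters. The median biological coefficient of variation over genes was 16.7% with it and 9.31% without it. Leaving it out leaves its group with 1 library, which adds nothing to that spread. The spread without replicate 1 was not computed, so this drop does not show which replicate stood apart. Intronic reads made up 14.8% to 25.9% of all counts, with the highest shares in the siPFDN5 libraries before serum (22.8% and 25.9%) and lower ones in the libraries labelled siPFDN5 after serum (17.2% and 14.8%).

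SRSF1 was the most and SRSF4 the least abundant member on the scale of exon CPM per kb of exon, which allows levels to be compared between genes. SRSF1, a founding member of the family that acts on splicing and translation and is a known oncoprotein, had a median of 123 CPM per kb over the 12 libraries (lowest 76.3, highest 140). It was followed by SRSF2, a nuclear speckle protein, with a median of 89.9 (60.3 to 109), and SRSF6 with 72.1 (49.2 to 86.3). SRSF3, the smallest of the family, which also takes part in mRNA export, had a median of 43.7 CPM per kb (30.5 to 56.2), next to SRSF7, which carries a zinc knuckle beside its RNA recognition motif, with 42.6 (27.6 to 52.0). SRSF5 had a median of 21.9 CPM per kb (15.8 to 31.8). TRA2B, an SR-like protein that binds GAA-rich enhancers, had 15.5 (9.43 to 17.8), SRSF10, which represses splicing when dephosphorylated, 13.6 (7.69 to 15.8), and SRSF11, an SR-related protein, 13.5 (9.06 to 14.8). SRSF4, with the longest arginine and serine rich domain of the family, had 3.85 (3.19 to 5.23). Neighbours in this order overlapped in range over the libraries, except that all SRSF4 values lay below all SRSF11 values. Reads were counted without strand and could count for overlapping genes at once. SRSF1 and SRSF2 each overlap 2 annotated genes and SRSF4 and SRSF11 overlap 1, so reads of those neighbours may be held in their counts, while the other 6 overlap none.

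**Figure D1:**
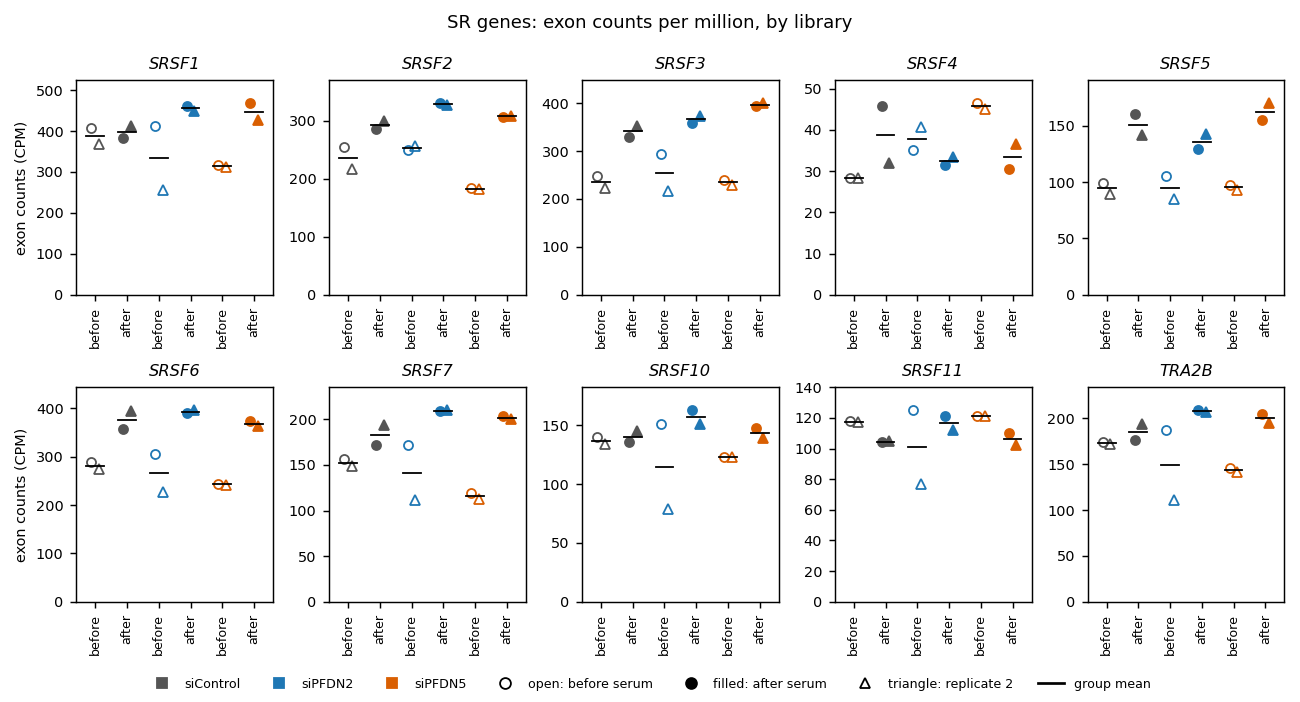
Exon CPM of each of the 10 members in the 12 libraries, 1 panel per gene, with each point a library and the groups ordered by siRNA and time. SRSF3, SRSF5 and SRSF6 sit higher after serum under all 3 siRNAs, and the low points of SRSF10, SRSF11 and TRA2B are siPFDN2 before serum replicate 2.

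After 90 min of serum, 5 members stood higher than before it in the average over the 3 siRNAs, by 1.40 to 1.58 fold: SRSF2, SRSF3, SRSF5, SRSF6 and SRSF7. None of the 10 was called lower. The test was edgeR's quasi-likelihood test on exon counts over 24889 genes, with Benjamini-Hochberg adjustment and a call at an adjusted p under 0.05. In it 5.85% of all genes were called higher and 5.11% lower. The median log2 change of the 10 members was 0.42, beside -0.02 over all genes tested. With libraries scaled by their size alone the median of all genes moved to -0.14 and the calls shifted from 1456 higher and 1273 lower to 1020 higher and 3124 lower, and 5 members were again called, all higher. As in any bulk library, a change in the share of cells that express a gene and a change in RNA per cell cannot be told apart.

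SRSF5, first described as a gene induced by insulin in liver cells, changed the most of the 10. The siControl libraries had 99.2 and 89.5 CPM before serum, and 160 and 142 after it. In siPFDN2 the values were 105 and 84.8 before and 129 and 143 after, and in siPFDN5 97.6 and 92.9 before and 155 and 170 after. All after-serum libraries lay above all before-serum libraries, whatever the siRNA. The averaged log2 change was 0.66 ± 0.09 (SE; edgeR adjusted p = 0.000685), and leaving out any 1 library kept the call.

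SRSF3, whose level is known to vary through the cell cycle, rose alike. It had 247 and 223 CPM before and 329 and 353 after serum in siControl, at 293 and 217 before and 359 and 374 after in siPFDN2, and at 240 and 230 before and 394 and 400 after in siPFDN5. The before-serum and after-serum libraries did not overlap. Its averaged log2 change was 0.60 ± 0.09 (SE; edgeR adjusted p = 0.00149). SRSF6 stood at 288 and 274 CPM before and 357 and 395 after serum in siControl, at 305 and 226 before and 390 and 396 after in siPFDN2, and at 243 and 242 before and 373 and 363 after in siPFDN5. Its groups again did not overlap, with an averaged log2 change of 0.53 ± 0.09 (SE; edgeR adjusted p = 0.00323).

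SRSF2 and SRSF7, like SRSF3 and SRSF5, showed their widest steps in siPFDN5. SRSF2 stood at 254 and 216 CPM before and 286 and 300 after serum in siControl, at 250 and 256 before and 330 and 327 after in siPFDN2, and at 184 and 182 before and 307 and 308 after in siPFDN5. SRSF7 stood at 156 and 149 CPM before and 172 and 194 after serum in siControl, at 172 and 111 before and 209 and 210 after in siPFDN2, and at 119 and 113 before and 204 and 200 after in siPFDN5. Within each siRNA neither gene's before-serum values reached its after-serum values. Averaged log2 changes were 0.48 ± 0.07 for SRSF2 (SE; edgeR adjusted p = 0.00165) and 0.54 ± 0.11 for SRSF7 (edgeR adjusted p = 0.00882). Without both libraries labelled siPFDN5 after serum, these 2 genes lost their calls (adjusted p = 0.0914 and 0.147), and 3 members stayed called.

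**Figure D2:**
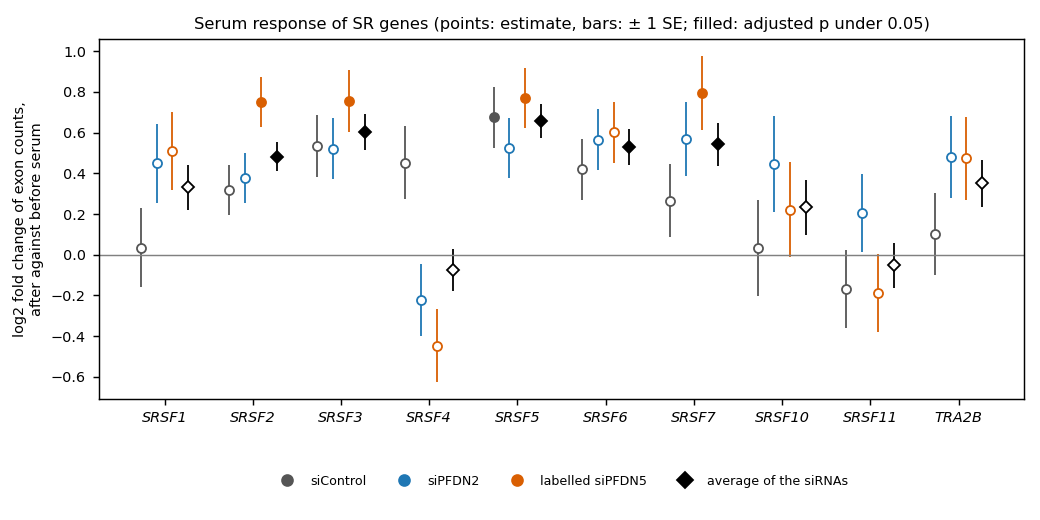
Log2 change of exon counts from before to after serum for each member, with its SE (bars), in each siRNA and averaged over the 3; filled points passed the test. Averaged values run from -0.07 (SRSF4) to 0.66 (SRSF5), and SRSF4 runs from 0.45 in siControl to -0.45 in siPFDN5.

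The other 5 members did not pass the test in the averaged response. SRSF1 stood at 407 and 369 CPM before and 383 and 412 after serum in siControl, at 412 and 255 before and 462 and 449 after in siPFDN2, and at 317 and 312 before and 468 and 427 after in siPFDN5, with an averaged log2 change of 0.33 (edgeR adjusted p = 0.0827). TRA2B had 0.35 (adjusted p = 0.0791), SRSF10 0.23 (0.272), SRSF11 -0.05 (0.786) and SRSF4 -0.07 (0.659). TRA2B was at 174 and 172 CPM before and 177 and 194 after in siControl, and at 146 and 142 before and 205 and 195 after in siPFDN5. Neither siRNA's values overlapped between times in TRA2B, while those of SRSF1 overlapped in siControl. SRSF10 stayed between 123 and 163 CPM in all libraries but siPFDN2 before serum replicate 2, where it was 79.0. Without that library 7 members were called higher, now also SRSF1 (0.23, edgeR adjusted p = 0.00147) and TRA2B (0.24, 0.0005), where 15.3% of genes were called higher. SRSF11 was then called lower (-0.15, 0.0142), where 13.1% of genes were.

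Within single siRNAs fewer calls were made, and leaving out libraries moved them. In siControl, 1 of 10 was called higher (SRSF5, log2 change 0.67 ± 0.15 SE, edgeR adjusted p = 0.0444), where 1.73% of genes were, and it kept the call in 2 of the 12 fits that left out 1 library, those without either siPFDN2 library before serum. In siPFDN2, 0 of 10 were called by edgeR, where 1.67% of genes were called higher, with 7 at an unadjusted p under 0.05, as were 7088 of the 24889 genes. DESeq2 called 5 members higher, where it called 1018 genes higher and 1845 lower. In siPFDN5, 4 of 10 were called higher, where 2.72% of genes were: SRSF2 (0.75 ± 0.12 SE, adjusted p = 0.00927), SRSF5 (0.77 ± 0.15, 0.0198), SRSF3 (0.76 ± 0.15, 0.0244) and SRSF7 (0.80 ± 0.18, 0.0396). Each of these 4 lost its call when any 1 of the 4 siPFDN5 libraries was left out. SRSF7 held in 2 of 12 such fits, SRSF3 in 5, and SRSF2 and SRSF5 in 8. Without siPFDN2 before serum replicate 2 the siPFDN2 response had 3 calls (SRSF2, SRSF5 and SRSF6), where 3.16% of genes were higher. Here the lone siPFDN2 library before serum is taken to vary like the other groups. The siPFDN5 response then had 8 members higher, where 18.6% of genes were, and SRSF4 lower (-0.44, adjusted p = 0.0476), where 14.2% were. Median log2 changes of the members were 0.29 in siControl, 0.47 in siPFDN2 and 0.55 in siPFDN5, beside medians over all genes of -0.00, -0.01 and -0.01.

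No member was called between a knockdown and siControl in the test on all 12 libraries. edgeR called 0 of 10 for siPFDN2 against siControl before serum (0.0% of genes called, 1 member at an unadjusted p under 0.05), for siPFDN5 against siControl before serum (0.0%, 2 members), for siPFDN2 against siControl after serum (0.0%, 0 members) and, after serum, for libraries labelled siPFDN5 against siControl (0.00402%, 0 members). Nor was a difference between serum responses called, with 0 of 10 for siPFDN2 minus siControl (0.0% of genes, 1 member at an unadjusted p under 0.05) and for siPFDN5 minus siControl (0.0%, 2 members). Over all genes 1205 to 4359 of 24889 had an unadjusted p under 0.05 in these 6 comparisons. DESeq2 called 0 members in each of them, and its calls over all genes are not given here. The comparisons that involve siControl use the same siControl libraries.

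SRSF4 went its own way in the values. Its level before serum was 28.3 and 28.4 CPM in siControl, 35.1 and 40.7 in siPFDN2 and 46.5 and 45.1 in siPFDN5, so that the 3 siRNAs did not overlap in starved cells. After serum it stood at 45.8 and 32.0 in siControl, 31.4 and 33.5 in siPFDN2 and 30.5 and 36.5 in siPFDN5, where the siRNAs overlapped. On all 12 libraries the log2 difference of siPFDN5 from siControl before serum was 0.69 ± 0.18 (SE; edgeR adjusted p = 0.34), and that of the serum responses -0.90 ± 0.25 (adjusted p = 0.247). Without siPFDN2 before serum replicate 2 both passed, at 0.68 (adjusted p = 0.0202, where 4.31% of genes were called higher) and -0.88 (adjusted p = 0.0203, where 7.55% of genes were called lower).

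The same omission turned the siPFDN5 values of 4 other members into calls. Without that library SRSF1 (-0.31, edgeR adjusted p = 0.0161), SRSF2 (-0.37, 0.00588), SRSF7 (-0.40, 0.00313) and TRA2B (-0.27, 0.0249) were called lower in siPFDN5 than in siControl before serum. There 6.47% of genes were called lower. These 4 members also had a larger serum step in siPFDN5 than in siControl (SRSF1 0.49, SRSF2 0.45, SRSF7 0.54 and TRA2B 0.39, adjusted p = 0.00687, 0.0111, 0.00357 and 0.0158), where 11.1% of genes had a larger one. The after-serum libraries of siPFDN5 and siControl lay closer, but in the other order. In these 4 members the libraries labelled siPFDN5, and those of siPFDN2, then lay above siControl without overlap. SRSF7, for instance, was at 172 and 194 CPM in siControl, 209 and 210 in siPFDN2 and 204 and 200 in siPFDN5. The calls in siPFDN5 given here rest on the removal of 1 library, chosen after its values were seen.

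The transcript files give estimated counts for each annotated transcript, from which the share of non-productive messages (annotated as NMD targets or as retaining an intron) among productive and non-productive ones was taken. TRA2B stood apart with a median of 52.0% non-productive (44.1% to 74.7% over the libraries). SRSF3 followed with a median of 30.6%, then SRSF10 with 15.2%, SRSF2 with 13.6%, SRSF6 with 13.2%, SRSF7 with 12.2% and SRSF5 with 11.8%. SRSF4, SRSF1 and SRSF11 had 5.43%, 3.40% and 0.595%. The estimates share reads between overlapping transcripts by a model, so a share is no direct count, and the unmatched transcripts are not in it.

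In TRA2B the poison exon message and the leading coding message held similar shares on average over the libraries, with the order differing between libraries. TRA2B-206, the transcript with the exon of 276 bases printed above, made up 32.2% and 36.7% of the TRA2B estimates in siControl before serum and 34.0% and 32.0% after it. Its share was 32.5% and 42.6% in siPFDN2 before serum and 31.3% and 34.9% after it, and 29% and 27.3% in siPFDN5 before serum and 34.5% and 35.9% after it. TRA2B-205, the coding message, held 34.2% and 33.5% in siControl before serum and 31.7% and 37.5% after it, 32.9% and 17.4% in siPFDN2 before serum and 38.1% and 41.2% after it, and 34.3% and 38.0% in siPFDN5 before serum and 42.2% and 41.3% after it. The retained-intron message TRA2B-215 held 10.8% and 9.38% in siControl before serum and 10.8% and 7.85% after it, 11.5% and 10.1% in siPFDN2 before serum and 8.40% and 5.53% after it, and 12.3% and 8.62% in siPFDN5 before serum and 3.87% and 4.70% after it. The share of TRA2B-215 was lower after serum without overlap in siPFDN2 and in siPFDN5. That of TRA2B-206 was higher without overlap in siPFDN5 and overlapped in siPFDN2, and none of these transcripts was tested singly.

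**Figure D3:**
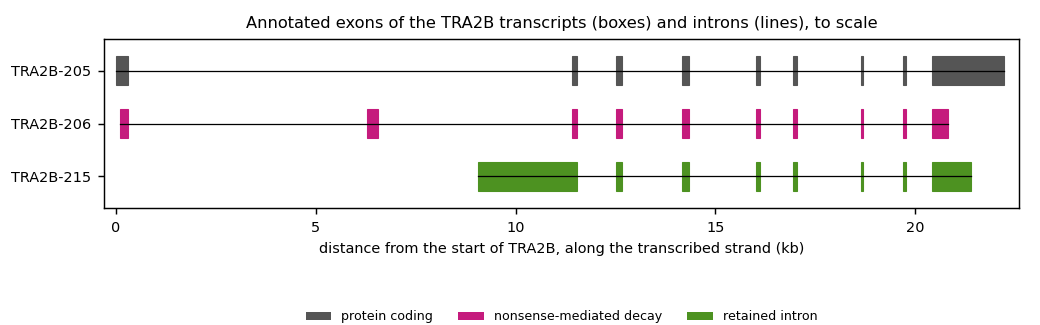
Annotated exons (boxes) and introns (lines) of TRA2B-205 (coding), TRA2B-206 (NMD target) and TRA2B-215 (retained intron), drawn to scale in kb from the start of the gene along the transcribed strand. TRA2B-206 has the cassette exon of 276 bases between the first exon and the next, and TRA2B-215 starts in the intron before an exon that the others share.

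The other members carried their non-productive messages in different forms. SRSF3 had both, with the retained-intron SRSF3-207 at 11.8% to 17.4% of its estimates and the NMD target SRSF3-204 at 5.89% to 12.5%. SRSF2 was led by the retained-intron SRSF2-206, at 7.36% to 11.6% in 11 libraries, with the NMD target SRSF2-208 at 0.713% to 3.29% there. In siPFDN2 before serum replicate 2 this was inverted, with SRSF2-208 at 32.6% and SRSF2-206 at 0.366%. SRSF6 has 1 coding and 1 NMD transcript in the annotation, and the latter, SRSF6-202, held 8.08% to 15.3% in 11 libraries and 34.9% in that same library. SRSF10 was led by the retained-intron SRSF10-213 (7.47% to 18.6%), SRSF5 by the retained-intron SRSF5-212 (3.50% to 14.7%), and SRSF7 by the NMD target SRSF7-208 (4.61% to 9.96%). In SRSF1, the NMD target SRSF1-206 held 1.26% to 3.32%, and in SRSF4 SRSF4-206 held 3.26% to 9.43%. SRSF11 had no retained-intron transcript in the matched annotation, but its processed transcript SRSF11-214, without a reading frame, held 6.99% to 20.1%.

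The non-productive share of SRSF5 fell after serum, the only member called. The share was 16.8% and 12.2% before and 8.30% and 9.06% after serum in siControl, 15% and 17.2% before and 11.5% and 6.43% after in siPFDN2, and 21.4% and 21.2% before and 6.91% and 5.16% after in siPFDN5. All after-serum libraries lay below all before-serum libraries. The averaged log2 change of the ratio of non-productive to coding estimates was -1.31 ± 0.20 (SE; edgeR adjusted p = 0.0221 over 7391 genes), where 1.96% of genes were called lower. The call held in 5 of the 12 fits that left out 1 library. It was lost without siControl before serum replicate 1, siControl after serum replicate 2, siPFDN2 after serum replicate 2 or any of the 4 siPFDN5 libraries (adjusted p up to 0.0878), and also without both libraries labelled siPFDN5 after serum (-0.92, adjusted p = 0.242). By siRNA the change was -0.81 in siControl (adjusted p = 0.793), -1.02 in siPFDN2 (0.313) and -2.09 in siPFDN5 (0.0685). The difference between siPFDN5 and siControl was -1.28 ± 0.49 (SE; adjusted p = 0.388).

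The lower SRSF5 share came with a higher coding estimate. CPM here is a transcript's estimate over the TMM-scaled library size of the exon counts. SRSF5-217, the leading coding transcript, was estimated at 47.3 and 40.8 CPM before and 97.3 and 84.7 after serum in siControl. In siPFDN2 it was at 54.3 and 18.8 before and 77.2 and 94.4 after. In siPFDN5 it was at 47.5 and 43.5 before and 88.3 and 100 after. SRSF5-212, which keeps the intron of 1215 bases, was estimated at 10.2 and 7.39 CPM before and 7.66 and 7.23 after serum in siControl, at 8.35 and 7.74 before and 9.98 and 6.38 after in siPFDN2, and at 14.6 and 13.6 before and 7.41 and 6.07 after in siPFDN5. The retained-intron message thus overlapped between times in siControl and siPFDN2 and did not in siPFDN5, while the coding message overlapped under none of the 3 siRNAs. These 2 transcripts were not tested singly.

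The other 9 members were not called in the averaged response, with SRSF7 at -0.60 (edgeR adjusted p = 0.0651), SRSF1 at -0.71 (0.142) and TRA2B at -0.56 (0.183). The median over the 10 was -0.52, beside -0.21 over all genes. When all coding and non-productive sums were scaled by TMM, the calls over all genes changed from 31 higher and 145 lower to 64 higher and 66 lower. Within siRNAs edgeR called 0 of 10 in siControl (0.0271% of genes lower), siPFDN2 (0.0406%) and siPFDN5 (0.0676%), with 1, 6 and 2 members at an unadjusted p under 0.05, as were 460, 1053 and 1427 of the 7391 genes. Of the 6 in siPFDN2, none had an unadjusted p under 0.05 without siPFDN2 before serum replicate 2. In that library SRSF2, SRSF6, SRSF1 and TRA2B had non-productive shares of 42.5%, 34.9%, 9.54% and 74.7%, above the 15%, 15.3%, 4.70% and 57.3% that were the highest of the other 11 libraries.

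**Figure D4:**
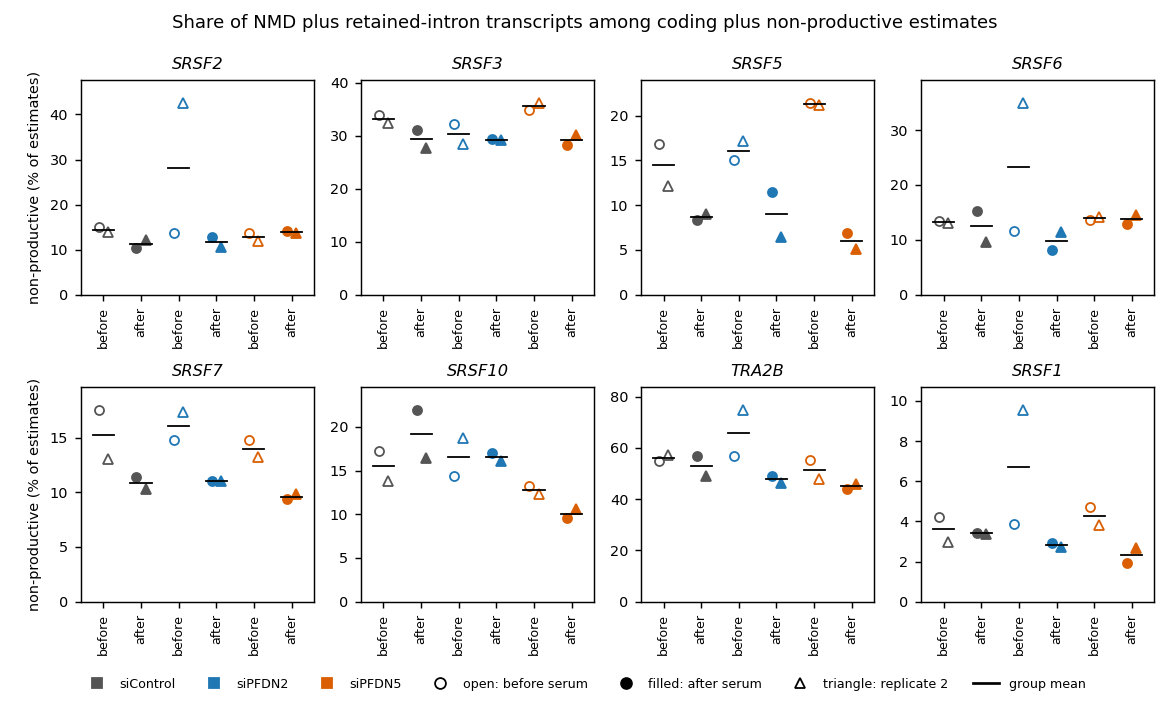
Percent of non-productive (NMD and retained-intron) among coding and non-productive estimated counts for 8 members (all but SRSF4 and SRSF11), with each point a library and the groups ordered by siRNA and time. SRSF5 is lower after serum under each siRNA, and siPFDN2 before serum replicate 2 stands above all other libraries in SRSF1, SRSF2, SRSF6 and TRA2B.

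With retained-intron messages alone, their ratio to coding estimates fell on average after serum in 2 of 8 members with such transcripts. These were SRSF5 (log2 change of the ratio -1.23 ± 0.20 SE, edgeR adjusted p = 0.0131) and TRA2B (-1.10 ± 0.25, adjusted p = 0.0344), where 6.2% of genes were called lower. A lower ratio can also come from a higher coding estimate. The retained-intron share of TRA2B was 22.9% and 20.7% before and 23% and 16.9% after serum in siControl, 24.3% and 32.1% before and 17.6% and 11.7% after in siPFDN2, and 26.1% and 20.6% before and 9.55% and 9.88% after in siPFDN5. The groups overlapped in siControl and were apart in the other siRNAs. The share of TRA2B from NMD targets stood at 27.3% to 42.6% and was higher after serum in siPFDN5 (29% and 27.3% before, 34.5% and 35.9% after).

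No member was called between a knockdown and siControl in the non-productive share. edgeR called 0 of 10 in siPFDN2 against siControl before serum (0.0% of genes, 0 members at an unadjusted p under 0.05), siPFDN5 against siControl before serum (0.0%, 0), siPFDN2 against siControl after serum (0.0%, 0) and, also after serum, libraries labelled siPFDN5 against siControl (0.0%, 2). It also called 0 of 10 for the difference of the serum responses, siPFDN2 minus siControl (0.0%, 0) and siPFDN5 minus siControl (0.0135%, 1). Over all genes 316 to 1289 of 7391 had an unadjusted p under 0.05 in these 6 comparisons. The 2 members at an unadjusted p under 0.05 after serum were SRSF10 (-1.07, adjusted p = 0.17) and SRSF4 (-0.98, 0.222). SRSF10 was at 21.9% and 16.4% non-productive in siControl after serum and at 9.54% and 10.6% in the libraries labelled siPFDN5 after serum, which did not overlap.

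Intronic reads, the gene-body counts less the exon counts, follow RNA that is not yet spliced and introns held back. The exon counts cover annotated retained-intron transcripts too, so these introns, such as the one of SRSF5-212, are counted as exon and not as intron. Of the 10 members, 6 overlap no other gene and had enough reads for a test: SRSF3, SRSF5, SRSF6, SRSF7, SRSF10 and TRA2B. Their intronic share of gene-body counts was lowest in SRSF6 (0.214% to 0.466%) and highest in TRA2B (4.02% to 9.74%). Over the 6, 4 were lower after serum on average: SRSF3, SRSF5, SRSF10 and TRA2B. This share was however lower in most genes: 36.5% of the 4031 genes tested were called lower, and the median log2 change was -0.39 over all genes, beside -0.65 over the 6.

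SRSF3 had an intronic share of 1.79% and 1.77% before and 1.18% and 1.07% after serum in siControl, 1.74% and 1.87% before and 0.899% and 0.893% after in siPFDN2, and 1.63% and 1.53% before and 0.758% and 0.693% after in siPFDN5. All after-serum libraries lay below all before-serum libraries. Its averaged log2 change of the ratio of intronic to exon counts was -0.94 ± 0.16 (SE; edgeR adjusted p = 0.000112). SRSF5, on 31 to 112 intronic counts, had 0.847% and 0.842% before and 0.528% and 0.344% after serum in siControl, 0.672% and 1.45% before and 0.486% and 0.477% after in siPFDN2, and 0.828% and 0.817% before and 0.461% and 0.469% after in siPFDN5. It too was apart, at -0.96 ± 0.22 (SE; adjusted p = 0.00143). SRSF10 (-0.59 ± 0.18 SE, adjusted p = 0.0131) and TRA2B (-0.71 ± 0.17, adjusted p = 0.00272) were called as well, while SRSF7 had -0.39 (0.0771) and SRSF6 -0.31 (0.172). The call of SRSF10 was lost without siPFDN5 before serum replicate 1 (adjusted p = 0.0597).

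In the average over the siRNAs, the fall held for 3 of these when the shift over all genes was scaled away, but not in siPFDN5 alone. With TMM scaling of exon and intron columns, which moved the median of all genes to -0.02 and the calls from 139 higher and 1472 lower to 545 higher and 623 lower, SRSF3 (-0.57, edgeR adjusted p = 0.00243), SRSF5 (-0.60, 0.0115) and TRA2B (-0.34, 0.0276) were called lower, where 15.5% of genes were. SRSF10 was not (-0.22, 0.16). By siRNA under this scaling, SRSF3 changed by -0.88 in siControl, -0.80 in siPFDN2 and -0.04 in siPFDN5. SRSF5 changed by -1.21, -0.86 and 0.27, and TRA2B by -0.425, -0.418 and -0.177, in the same order. Without both libraries labelled siPFDN5 after serum, SRSF3 and SRSF5 were still called and SRSF10 (-0.44, adjusted p = 0.288) and TRA2B (-0.42, 0.289) were not.

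Among the siRNAs, the intronic values depended on the overall shift. In siControl edgeR called 0 of 6 (1.31% of genes lower, 2 members at an unadjusted p under 0.05, as were 694 of 4031 genes), with SRSF5 at -0.99 (adjusted p = 0.139) and SRSF3 at -0.67 (0.197). In siPFDN2, 1 of 6 was called lower (SRSF3, -1.02, adjusted p = 0.0351), where 4.42% of genes were, and it held in 3 of 12 fits that left out 1 library. In siPFDN5, 4 of 6 were called lower: TRA2B (-1.27, adjusted p = 0.00163), SRSF3 (-1.14, 0.00242), SRSF10 (-0.89, 0.0217) and SRSF6 (-0.82, 0.0331). There 57.5% of all genes were called lower, the median over all genes was -0.98, and that of the members -0.86. The calls of SRSF10 and SRSF6 were lost without any 1 of the 4 siPFDN5 libraries. With TMM scaling of the columns none of the 4 was called in siPFDN5, with log2 changes of -0.18 for TRA2B, -0.04 for SRSF3, 0.21 for SRSF10 and 0.27 for SRSF6, and SRSF7 was called higher (0.82, adjusted p = 0.0273).

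**Figure D5:**
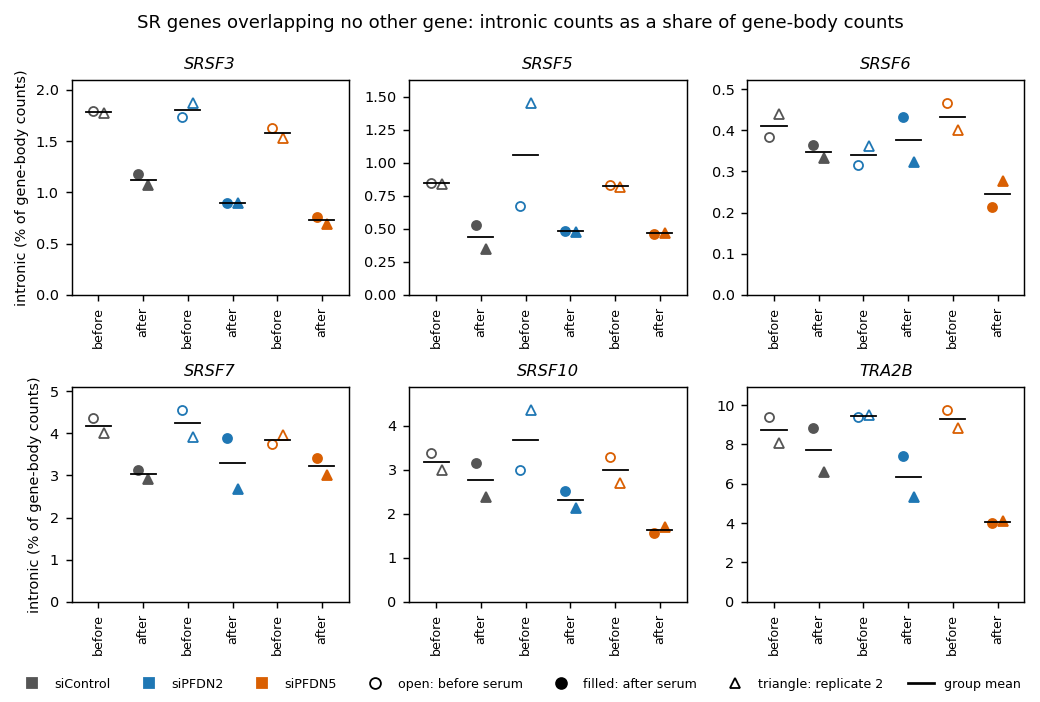
Percent of gene-body counts that are intronic for the 6 members tested, with each point a library and the groups ordered by siRNA and time. SRSF3 is lower after serum under each siRNA, and TRA2B stands at 4.02% and 4.10% in the libraries labelled siPFDN5 after serum against 5.32% to 9.74% elsewhere.

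TRA2B and SRSF10 had less intronic signal in the libraries labelled siPFDN5 after serum than in siControl after serum. TRA2B stood at 4.02% and 4.10% against 8.82% and 6.61% (log2 difference -0.97, edgeR adjusted p = 0.0115), and SRSF10 at 1.55% and 1.70% against 3.16% and 2.38% (-0.77, 0.0434). These were 2 of 6 members called lower, where 54.4% of all genes were and the median of all genes was -0.92. The serum response of TRA2B was lower in siPFDN5 than in siControl by -1.06 ± 0.42 (SE; adjusted p = 0.0453), 1 of 6 members, where 43.3% of genes were called lower and the median of all genes was -1.13. The 3 calls held in 9 (TRA2B), 4 (SRSF10) and 5 (the difference for TRA2B) of 12 fits that left out 1 library. With TMM scaling of the columns the 3 values were 0.06, 0.26 and 0.25, in the opposite direction and not called. Under that scaling SRSF7 (2.17-fold, adjusted p = 0.0271) and SRSF5 (2.23-fold, 0.0437) were called higher in the libraries labelled siPFDN5 than in siControl, both after serum. edgeR called 0 of 6 in siPFDN2 against siControl before serum (0.0% of genes), siPFDN5 against siControl before serum (0.0%), siPFDN2 against siControl after serum (0.0%) and the difference of serum responses of siPFDN2 and siControl (0.0%), with 0 members at an unadjusted p under 0.05 in each, beside 126 to 453 of 4031 genes.

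The 4 members left out of this test are described only. SRSF1 and SRSF2, whose annotated exons cover 83.8% and 92.5% of the gene body, had at most 0.157% and 0.134% intronic counts. SRSF4 and SRSF11, whose exons cover 26.0% and 17.9%, had the highest shares of the 10. SRSF4 had 26.2% and 28.3% before and 32.6% and 23.6% after serum in siControl, 22.2% and 20.9% before and 27.6% and 26.5% after in siPFDN2, and 22.7% and 21.4% before and 17.1% and 13.6% after in siPFDN5. SRSF11 had 16.9% and 15.3% before and 28.7% and 19.4% after serum in siControl, 15.5% and 15.4% before and 18.2% and 15.9% after in siPFDN2, and 16.5% and 13.9% before and 9.66% and 9.10% after in siPFDN5. After serum both genes were thus higher in siPFDN2 and lower in siPFDN5, without overlap, while in siControl SRSF4 overlapped and SRSF11 was higher. Both genes overlap another gene, whose reads cannot be told apart from theirs here.

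Few other genes of the pathway were called in the averaged serum response. Of 27 other SR and SR-like genes, 26 were tested: 1 was called higher, CCNL1, a cyclin with an arginine and serine rich domain (log2 change 0.61, edgeR adjusted p = 0.00774), and 1 lower, LUC7L3, a U1-associated protein (-0.35, 0.0421). CCNL1 stood at 60.0 and 50.7 CPM before and 77.9 and 69.1 after serum in siControl. Of 9 SR kinases and import factors, DYRK1A was called higher (0.34, 0.0353) and CLK2, a kinase of SR proteins, lower (-0.65, 0.00388), at 20.9 and 15.5 CPM before and 14.1 and 13.8 after serum in siControl. Of 15 NMD factors, 3 were called higher, all of the exon junction complex, MAGOH (0.39, 0.0402), EIF4A3 (0.32, 0.0183) and RBM8A (0.29, 0.0298). Those called lower included the NMD helicase UPF1 (-0.50, 0.0349) and SMG9 (-0.45, 0.0297). In siPFDN2 before serum replicate 2 these stood at 194 and 41.5 CPM, their highest values. Without that library the log2 changes were -0.33 for both. The group medians were -0.00, 0.01 and -0.17, beside -0.02 over all genes. In the non-productive share edgeR called 0 of 22, 0 of 7 and 0 of 10 genes of these lists in the averaged response, with 8, 2 and 3 at an unadjusted p under 0.05, as were 1580 of the 7391 genes.

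The members differed in how closely they followed their common profile, the mean of their standardised log2 exon CPM over the 12 libraries, which is a description only, since all values share the libraries. TRA2B (r = 0.958), SRSF6 (0.957), SRSF7 (0.953), SRSF1 (0.943) and SRSF3 (0.932) followed it most closely, SRSF11 (0.373) and SRSF4 (-0.365) least. Among 11197 genes, those outside the list with the profile most like it included ZNF121 (r = 0.982), TTC19 and RFC4 (0.977 each) and CAV1 (0.975). Without siPFDN2 before serum replicate 2 they were S100A2 and IL6R (0.98 each), H3F3B (0.978), HNRNPDL (0.977) and CAV1 (0.973), of which CAV1 stands on both lists, and SRSF2 moved from 0.743 to 0.969 and SRSF11 to -0.438.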

How the data were processed

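Total RNA of 12 HCT116 libraries was sequenced. Counts per gene over exons and over gene bodies were deposited by the authors and made with featureCounts 1.5.2 on the Ensembl 87 annotation, paired and without strand, with a read allowed to count for overlapping genes, per the file headers. The per-sample files hold estimated counts per transcript, although the authors named them for TPM. HISAT2, kallisto 0.43 and GRCh38.p7 are named in the submitters' processing notes. In the count tables, 6 columns matched no label and were not used. Gene and transcript names came from GENCODE v29, which matched 57447 of 58051 genes and 159239 of 173259 transcripts; the rest held 2.5% to 14.62% of a library's estimates.

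Exon counts were tested with edgeR 4.0.16 in R 4.3.3 (filterByExpr, TMM, 6 group means, robust quasi-likelihood fits). The non-productive share compared rounded sums of coding transcripts with those of NMD and retained-intron transcripts, and the intron share compared exon counts with gene-body minus exon counts, each with the library as a block and a mean of at least 10 in both classes. The intron test was limited to genes that overlap no other. A prior count of 2 was used for the log2 CPM values of the profiles, the GC trend and the replicate check, not for the tested fold changes. DESeq2 1.42.0 and other filters, scalings and classes were tried. Only the edgeR fits of gene levels and of class shares were run on simulated counts, for the siControl serum response. All 10 members are named, with the leading transcripts of each class and those of at least 10% of a gene, up to 3 called genes per direction of each pathway list, and the 5 genes most alike in profile with a mean log2 CPM of at least 3; a few of these are not reported here. The members and lists were chosen with earlier results of these data known.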

Additional observations from a re-analysis of the deposited data

Results flagged for a closer look

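The intron share of TRA2B is singled out because its serum response differed between siPFDN5 and siControl by a test of the difference itself. The log2 difference was -1.06 ± 0.42 (SE; edgeR adjusted p = 0.0453), from 9.42% and 8.08% before to 8.82% and 6.61% after serum in siControl, and from 9.74% and 8.82% to 4.02% and 4.10% in siPFDN5. The median of all 4031 genes in the same comparison was -1.13, and 43.3% of them were called lower, so the value is not particular to TRA2B. With TMM scaling of exon and intron columns the value was 0.25 and not called. The call held in 5 of 12 fits that left out 1 library.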

How the results depend on the processing

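Counts of members called are given over the 10 members, or 6 for introns. With 1 library left out in turn, the gene level gave 0 to 5 calls for the serum response in siControl (1 with all libraries), 0 to 9 in siPFDN2 (0), 0 to 9 in siPFDN5 (4) and 5 to 8 averaged (5). It gave 0 to 7 and 0 to 5 for siPFDN2 and siPFDN5 against siControl before serum, 0 to 0 and 0 to 1 after it, and 0 to 7 and 0 to 5 for the differences of responses. The highest values came from leaving out a siPFDN2 library before serum. Without replicate 1 of it, replicate 2 stands alone for its group. Without replicate 2 the calls over all genes rose as well, as given above for the averaged and siPFDN5 responses. A higher count of members is thus no trait of the members alone. The non-productive share gave 0 to 0, 0 to 4, 0 to 1 and 0 to 6 for the serum responses in that order, 0 to 4 for siPFDN2 against siControl before serum and for the siPFDN2 difference, and 0 to 0 elsewhere. The intron share gave 0 to 1, 0 to 2, 2 to 5 and 3 to 5 for the serum responses, 0 to 3 for siPFDN5 against siControl after serum, 0 to 1 for the siPFDN5 difference, and 0 to 0 elsewhere.

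Where the calls over all genes are not given beside a count below, that count describes the processing and no trait of the members. At the gene level the siControl response gave 0 calls from gene-body counts, summed transcript estimates or library-size scaling, 2 from DESeq2 and 3 with a GC trend removed. The siPFDN2 response gave 3 with no filter, 5 from DESeq2 and 1 with the GC trend removed. The siPFDN5 response gave 2 with library-size scaling and 7 with the GC trend removed. The averaged response gave 8 with the GC trend removed and 3 without both libraries labelled siPFDN5 after serum, and siPFDN5 against siControl before serum gave 1 with the GC trend removed. That setting raised the calls over all genes too, in the averaged response from 1456 higher and 1273 lower to 3830 and 3147. In alternatives chosen after seeing the data, siPFDN2 before serum replicate 2 was left out together with GC removal (5, 2, 8 and 8 calls for the 4 serum responses, 6 and 1 for siPFDN5 against siControl before and after serum, 5 for its difference) or gene-body counts (3 in siControl, 8 in siPFDN5, 4 and 3 against siControl, 6 for the difference). For the non-productive share, siPFDN5 gave 1 call with retained introns alone or a mean of at least 50 and 2 with retained introns alone without that library. The averaged response gave 0 with NMD targets alone, with or without that library, 2 with retained introns alone, with or without it, and 0 without both libraries labelled siPFDN5 after serum. For introns, TMM over exon and intron columns gave 2 calls in siControl, 1 in siPFDN5 (SRSF7, higher) and 0 for its difference, and for siPFDN5 against siControl after serum 2 as reported, but SRSF5 and SRSF7, higher. Keeping all genes gave 5 for siPFDN5 against siControl after serum and 2 for the difference, and the averaged response gave 2 without both libraries labelled siPFDN5 after serum. TMM over columns reversed SRSF10 (0.21) and SRSF6 (0.27) in siPFDN5, SRSF10 (0.26) and TRA2B (0.064) against siControl after serum, and the TRA2B difference (0.25). The cause of these shifts was not tested.

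The replicate numbers showed no common pairing of the samples. Over 11197 genes, deviations of same-numbered samples correlated from -0.325 to 0.631 across the 15 pairs of groups. With 2 libraries a group, whether some groups were paired cannot be told. With the replicate block the siControl response gave 0 calls, and with the block and the GC trend removed 3 in siControl, 7 in siPFDN5, 8 averaged and 1 for siPFDN5 against siControl before serum.

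Depth does not limit the exon values (1542 counts or more per library), but the intron share of SRSF5 rests on 31 to 112 counts.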
